A study of Homo sapiens with 2 samples.

Results

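miR-103a-3p and miR-107 are a near-identical pair of miRNAs made from hairpins in introns of the pantothenate kinase genes PANK1, PANK2 and PANK3. They were taken by name (hsa-miR-103a-3p and hsa-miR-107), 2 of the 407 miRNAs in the count table. Both were measured in small RNA held on resin from lysate of BT549, a human line grown from a breast cancer, made to overexpress the long non-coding RNA SNHG15 with an MS2 tag. The tag is a set of phage RNA loops that the MS2 coat protein (MCP) binds. In the pulldown, lysate met amylose resin coated with MBP-MCP, that coat protein joined to maltose binding protein. In the control, the same kind of cells, also carrying SNHG15-MS2, gave lysate for bare amylose resin. The question of the study is which miRNAs SNHG15 holds. The resins differ in the MBP-MCP protein itself, so RNA held by that protein and RNA held through SNHG15 cannot be told apart. Each resin gave 1 library, so no difference below has a replicate check, and none was tested.

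miRNAs guide Argonaute proteins to messenger RNAs, mainly by pairing of the seed, bases 2 to 8 from the 5′ end. miR-103 and miR-107 are known to repress DICER1, which encodes the enzyme that cuts miRNAs from their hairpins, and high levels of the pair have been linked to metastasis of breast cancer. In mouse liver and fat the pair lowers insulin sensitivity through caveolin-1. The PANK host genes encode the kinases that start coenzyme A synthesis.

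The mature sequences are shown because they set what the reads of each can tell. Capitals mark the seed and the base at which the pair differs, in RefSeq sequences on GRCh38.p14.
miR-103a-3p: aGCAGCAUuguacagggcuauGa
miR-107: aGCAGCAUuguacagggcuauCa
The pair differs by G22C, counted from 1 at the 5′ end and read from miR-103a-3p to miR-107. The first 21 of 23 bases are the same, so a read that ends at or before base 21 matches both. The sources used here do not say how such reads were assigned. The sum of the pair is therefore given beside each member. It is unaffected where each such read was counted once, for either member, but not where such reads were dropped or counted for both. No other of the 2370 mature miRNA names in RefSeq carries the seed GCAGCAU.

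The mature miR-103a-3p has 2 hairpins and miR-107 has 1. They are shown with the mature arm in capitals, since both MIR103A hairpins give the same mature sequence and their reads cannot be divided.
MIR103A1: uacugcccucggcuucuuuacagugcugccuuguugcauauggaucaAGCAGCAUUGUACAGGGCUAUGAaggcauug
MIR103A2: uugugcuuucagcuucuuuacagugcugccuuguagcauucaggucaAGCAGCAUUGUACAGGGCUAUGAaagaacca
MIR107: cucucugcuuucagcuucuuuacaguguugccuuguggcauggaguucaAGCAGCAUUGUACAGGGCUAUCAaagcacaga
MIR103A1 lies at chr5:168560896-168560973 on the minus strand, in intron 5 of transcript PANK3-201. MIR103A2 lies at chr20:3917494-3917571 on the plus strand, in intron 5 of PANK2-201. MIR107 lies at chr10:89592747-89592827 on the minus strand, in intron 5 of PANK1-201. Each hairpin is on the strand of its host gene, in GENCODE 29 on GRCh38. The antisense entries MIR103B1 and MIR103B2 lie on the other strand over MIR103A1 and MIR103A2. Aligned over their whole length, the hairpins MIR103A2 and MIR107 were 85.2% identical, MIR103A1 and MIR103A2 80.8%, and MIR103A1 and MIR107 79.0%. The hairpin of miR-107 was therefore closer to MIR103A2 than the MIR103A hairpins were to each other. Of the 5 listed mature products of these hairpins, 2 had a row in the table used here, miR-103a-3p and miR-107, both from the 3′ arm.

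In all, 202560 reads were counted in the pulldown library, 1.82 times the 111414 reads of the control library. Among markers of a mesenchymal or basal breast line, all 5 listed were measured, led by miR-125b-5p with 10378 reads in the pulldown and 6539 in the control. Of 6 epithelial markers, miR-200a-3p alone had a row, with 1 read in each library. The 2 measured of 4 leukocyte markers summed to 14 reads in the pulldown and 12 in the control. Of 3 erythroid markers, miR-486-5p had 133 and 62 reads and miR-144-3p 0 and 2. The serum and liver miRNA miR-122-5p had 4 and 0 reads. The part of such other sources in the values of the pair was not tested.

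miR-103a-3p was an abundant miRNA on both resins, and miR-107 was a minor one. miR-103a-3p had 2150 reads in the pulldown library, 10614 reads per 1000000 reads of the library (RPM; exact Poisson 95% interval 10170 to 11072), and 1094 reads in the control library, 9819 RPM (9246 to 10419). It made up 1.06% of the pulldown reads (exact binomial 95% interval 1.02 to 1.11%) and 0.982% of the control reads (0.925 to 1.04%). By reads it ranked 12 of 407 in the pulldown and 14 in the control. The values of the libraries are close, and their Poisson intervals overlap. All intervals cover counting error only.

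In the order of levels, miR-103a-3p stood among other well known guide strands. In the pulldown it lay between miR-125a-5p, a relative of lin-4, with 2550 reads, and miR-31-5p, which restrains metastasis in breast cancer models, with 2030 reads. The interval of miR-125a-5p, 2452 to 2651 reads, was clear of the 2060 to 2243 reads of miR-103a-3p. That of miR-31-5p, 1943 to 2120 reads, overlapped it. In the control its neighbours were miR-27a-3p, with 1219 reads (1152 to 1289), and miR-9-5p, with 1081 reads (1018 to 1147). Both intervals overlapped the 1030 to 1161 reads of miR-103a-3p, so those places were not separated at this depth.

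miR-107 had 47 reads in the pulldown library, 232 RPM (170 to 309), and 22 reads in the control library, 197 RPM (124 to 299). It ranked 108 in the pulldown and 124 in the control, and the intervals of the libraries overlapped over most of their length. In the pulldown, miR-21-3p also had 47 reads, and miR-197-3p had 48 and miR-1269a 46. None of these neighbours was separated from miR-107 by more than counting error.

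**Figure D1:**
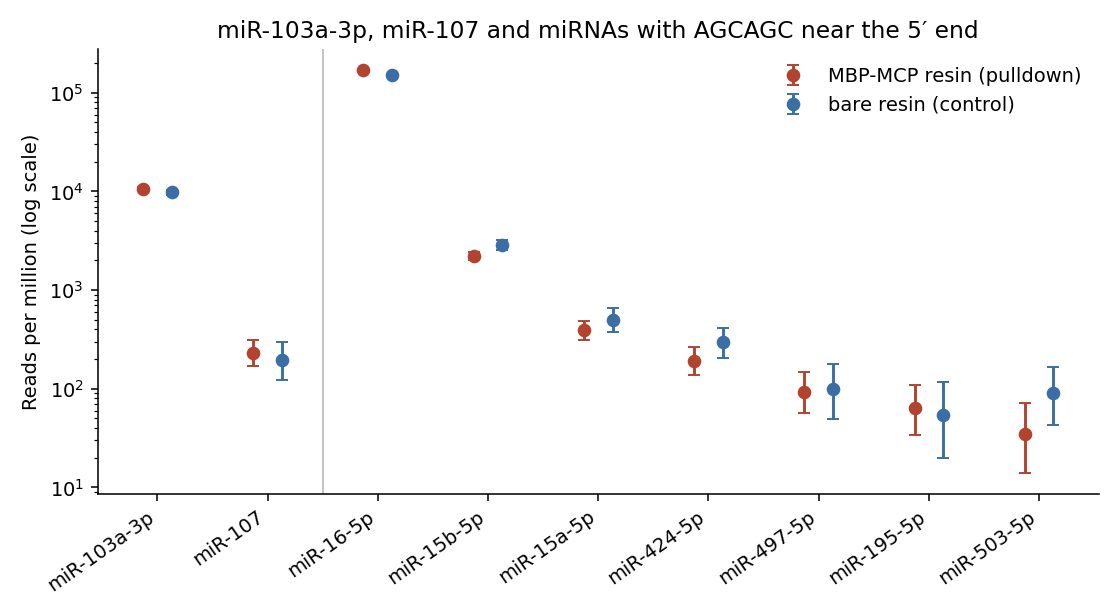
RPM on a log axis for miR-103a-3p, miR-107 and, right of the line, the related miRNAs with AGCAGC near the 5′ end, in the pulldown (red) and the control (blue). Bars are exact Poisson 95% intervals of 1 library each; miR-103a-3p sits near 10614 RPM in the pulldown and 9819 in the control, and miR-107 near 232 and 197.

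miR-103a-3p therefore outnumbered miR-107 by a wide margin on both resins, 45.7-fold in the pulldown (34.3 to 62.5) and 49.7-fold in the control (32.7 to 79.7). miR-107 made up 2.14% of the 2197 reads of the pair in the pulldown (exact binomial 95% interval 1.58 to 2.83%) and 1.97% of the 1116 reads in the control (1.24 to 2.97%). This share does not depend on how the libraries are scaled. The odds of a read of the pair being miR-107 were 1.09 times as high in the pulldown as in the control, with an exact conditional 95% interval of 0.638 to 1.9. A difference in how the members were held was thus not detectable at this depth, and one within those bounds cannot be told from none. Reads that match both members could shift the share in both libraries.

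**Figure D2:**
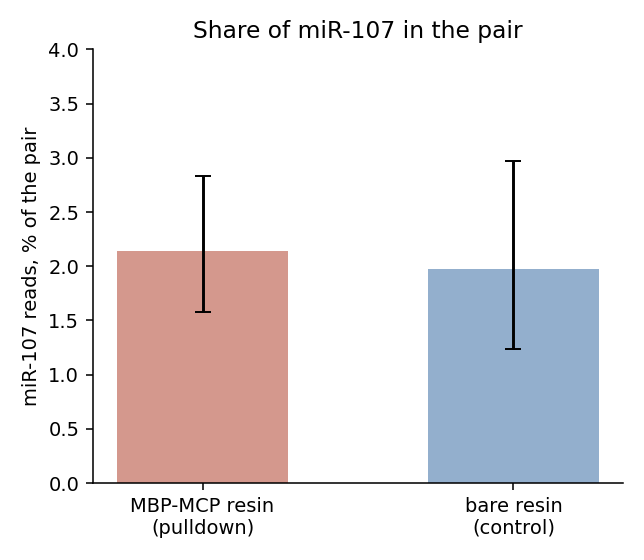
miR-107 reads as a percentage of the reads of miR-103a-3p and miR-107 together, in the pulldown (left) and the control (right), with exact binomial 95% intervals of 1 library each. The bars reach 2.14% and 1.97% and the intervals overlap.

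Between the resins, both members had a slightly larger share of the pulldown library. miR-103a-3p was 1.08-fold higher in the pulldown (exact Clopper-Pearson 95% interval 1.0 to 1.16), with a log2 ratio of 0.11. miR-107 was 1.18-fold higher (0.694 to 2.05), with a log2 ratio of 0.23, and its interval included 1. The summed reads of the pair were 1.08-fold higher (1.01 to 1.16), a log2 ratio of 0.11. The interval of miR-103a-3p stayed just clear of 1. Such an interval above 1 was found for 18 of the 161 miRNAs that had 20 or more reads in a library (11.2%), and one on either side of 1 for 34.8%. Neither member reached 2-fold, which 9 of the 161 did (5.59%), 4 on the higher side (2.48%) and 5 on the lower side (3.11%). The 161 include predicted miRNAs, which have no miRNA name, and some of these had the same counts as each other. They enter all of these shares. Those of the 9 with miRNA names were miR-27a-5p (2.42), miR-92b-5p (2.07) and miR-9-3p (0.449), and the others were predicted.

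In the authors' deposited table, miR-103a-3p has a log2 fold change of 0.11, a p-value of 0.147 and an adjusted p of 0.721. The authors' deposited table gives miR-107 a log2 fold change of 0.23, a p-value of 0.337 and an adjusted p of 0.849. Neither is called different there. The sources used here do not state the spread assumed behind those p-values, and 1 library for each resin cannot supply it.

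The size of the ratio rests on the scaling, and its sign did not among those tried. The median log2 ratio of the 161 miRNAs was -0.16 with total reads. With TMM factors, which scale by a trimmed mean of ratios, the median shifted by 0.19 and miR-103a-3p stood at 0.31. With DESeq2 size factors, the median ratio over miRNAs found in both libraries, the median shifted by 0.28 and miR-103a-3p stood at 0.39. miR-107 moved likewise, to 0.42 under TMM and 0.50 under DESeq2, and its interval included 0 each time. A scaling moves every miRNA and the median by nearly the same amount, so it leaves the distance from the median in place. With total reads miR-103a-3p lay 0.27 above the median of the 161 and miR-107 0.39 above it. These distances depend on which miRNAs are compared. The 26 with miRNA names and the most pulldown reads, miR-103a-3p among them, had a median of 0.01 (14 above 0, 12 below). On that scale miR-103a-3p stood at 0.11. The 67 with miRNA names and 20 to 100 pulldown reads, miR-107 among them, had a median of -0.10 (30 above 0, 37 below). How much RNA each resin held was not analysed here, so more of the pair on the MBP-MCP resin and less of other miRNAs cannot be told apart.

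**Figure D3:**
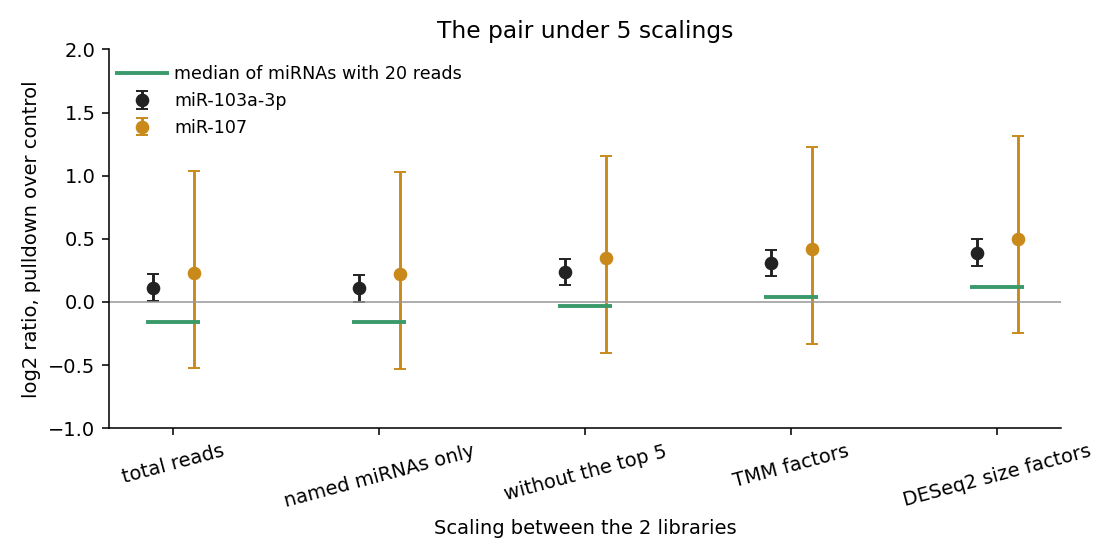
log2 ratios of miR-103a-3p (black) and miR-107 (orange), pulldown over control, under 5 scalings of the libraries, with exact 95% counting intervals; green bars mark the median of the 161 miRNAs with 20 reads in a library. Both members and the median move together, from 0.11, 0.23 and -0.16 with total reads to 0.39, 0.50 and 0.12 with DESeq2 size factors.

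Among the 161 miRNAs, 113 had a lower log2 ratio than miR-103a-3p and 47 a higher one. For miR-107, 132 were lower and 28 higher. Of the 133 with miRNA names, whose median log2 ratio was -0.06, 43 lay above miR-103a-3p and 25 above miR-107. Read against each other miRNA, so that no scaling enters, miR-103a-3p gained on 52 of 159 (its reads over those of the other miRNA were higher in the pulldown) by more than counting error, lost to 7 and was not separated from 100. miR-107, with its fewer reads, gained on 10, lost to 2 and was not separated from 147. Against the 131 others with miRNA names, miR-103a-3p gained on 38 and lost to 5, and miR-107 gained on 6 and lost to 0. All intervals of a member use its same reads and were not adjusted for their number. Some exclude equality by counting error alone, so the few of miR-107 are not read as differences.

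**Figure D4:**
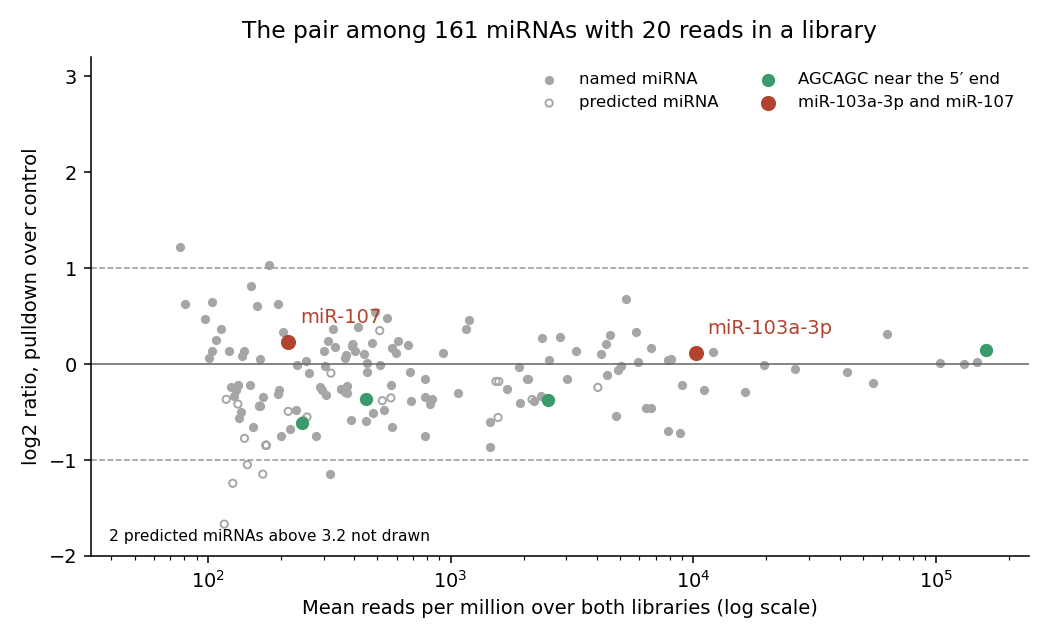
log2 ratio, pulldown over control, against mean RPM (log axis) for the 161 miRNAs with 20 or more reads in a library, with miR-103a-3p and miR-107 in red and related miRNAs in green. Dashed lines mark 2-fold, and 2 predicted miRNAs with no control reads lie above the axis; both red points lie just above 0, at 0.11 and 0.23.

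The same comparison was made with the 10 most abundant miRNAs of the pulldown, using the summed reads of the pair. The pair gained on 5 of them by more than counting error. The largest of these gains was over miR-29a-3p, a repressor of collagen genes, with a ratio of ratios of 1.32 (1.21 to 1.45). The gain over miR-125b-5p was 1.24 (1.15 to 1.34), over the oncogenic miR-21-5p 1.15 (1.06 to 1.24) and over miR-191-5p 1.13 (1.03 to 1.23). For let-7i-5p, of the let-7 family that restrains RAS genes, the interval reached from 1.0 to 1.16. The pair lost only to let-7b-5p among the 10, with a ratio of ratios of 0.870 (0.805 to 0.942). It was not separated from miR-16-5p, let-7a-5p, let-7f-5p and miR-93-5p.

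The miR-15/16 family, known to hold back the cell cycle, also carries AGCAGC near the 5′ end. Guide strands of this family are shown to compare the seeds (capitals).
miR-16-5p: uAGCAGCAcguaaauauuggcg
miR-15b-5p: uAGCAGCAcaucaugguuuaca
miR-15a-5p: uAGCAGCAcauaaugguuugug
miR-424-5p: cAGCAGCAauucauguuuugaa
miR-503-5p: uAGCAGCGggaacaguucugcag
AGCAGC starts at base 1 in miR-103a-3p and miR-107 and at base 2 in these relatives, so the shared letters sit 1 base further in. Of 9 listed relatives, 7 were in the table and 4 had at least 20 reads in a library. Of these 4, miR-16-5p alone stood higher in the pulldown and 3 stood lower, under each scaling tried. miR-16-5p had 34274 reads in the pulldown and 17015 in the control, a ratio of 1.11 (1.09 to 1.13), and it held 15.6 times as many reads as the pair in the pulldown and 15.2 times as many in the control.

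The pair gained by more than counting error on 2 of the 7 measured relatives, miR-15b-5p and miR-424-5p. For comparison, miR-103a-3p alone gained on 52 of 159 other miRNAs and on 38 of the 131 with miRNA names. The 2 of 7 is therefore not read as particular to the relatives. miR-15b-5p, made from the same transcript as MIR16-2, had 446 reads in the pulldown and 318 in the control, a ratio of 0.771 (0.667 to 0.894) with total reads. The pair gained on it 1.40-fold (1.19 to 1.65). miR-424-5p, from the X chromosome, had 39 and 33 reads, and the pair gained on it 1.67-fold (1.01 to 2.73). miR-15a-5p had 79 and 56 reads, and the ratio of ratios of 1.40 had an interval of 0.965 to 2.01. miR-503-5p, miR-195-5p and miR-497-5p had under 20 reads in each library, and their intervals against the pair included 1. The log2 ratios of the 4 relatives with 20 reads had a median of -0.37 with total reads, where the median was 0.17 for the pair and -0.16 over all 161. The median of the 4 was -0.17 under TMM and -0.09 under DESeq2. The ratios of these 4 thus stood on both sides of 1, but few intervals were clear of it. With total reads 1 of the 4 had an interval above 1 and 1 below, beside 23.6% of the 161 below. Under TMM and DESeq2 1 was above and 0 below, beside 9.32% and 7.45% of the 161 below.

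The pair was also set beside 3 lists of miRNAs that share its known roles or its kind of gene. For comparison, 64 of all 161 miRNAs stood above 0 and 97 below with total reads. Of 9 miRNAs of breast metastasis with 20 reads, 4 stood above 0 and 5 below, with a median log2 ratio of -0.08. miR-155-5p had 265 reads in the pulldown and 113 in the control, a ratio of 1.29 (1.03 to 1.62). miR-9-5p, which targets E-cadherin, had 1215 and 1081 reads, a ratio of 0.618 (0.569 to 0.672). With DESeq2 size factors 7 of the 9 stood above 0, so the balance of this list depends on the scaling.

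Of 8 metabolic miRNAs with 20 reads, 2 stood above 0 and 6 below under every scaling tried. Their median log2 ratio was -0.43 with total reads, -0.24 under TMM and -0.15 under DESeq2. With total reads all 6 lower ones had intervals below 1, as did 23.6% of the 161 miRNAs. This became 5 under TMM, beside 9.32% of the 161, and 3 under DESeq2, beside 7.45%. The 6 include 3 miRNAs of the miR-29 family and miR-27a-3p and miR-27b-3p, whose reads may be shared, and miR-143-3p. miR-27a-3p, which acts on fat cell formation, had 1345 reads in the pulldown and 1219 in the control, a ratio of 0.607 (0.561 to 0.656). miR-378a-3p, from an intron of PPARGC1B, had 95 and 40 reads, a ratio of 1.31 (0.894 to 1.94). miR-34a-5p had 22 and 11 reads, a ratio of 1.10 (0.511 to 2.51). Both members of the pair stood above 0, like miR-378a-3p and miR-34a-5p.

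Of 24 listed miRNAs made from introns of coding genes, 9 stood above 0 and 15 below, with a median of -0.13. That balance is near the one over all 161 miRNAs, 64 above and 97 below with a median of -0.16. The number of the 24 above 0 became 14 under TMM and 15 under DESeq2. miR-25-3p, from an intron of MCM7, had 1438 reads in the pulldown and 706 in the control, a ratio of 1.12 (1.02 to 1.23), close to that of miR-103a-3p. miR-93-5p, from the same intron, had 3953 and 2195 reads, a ratio of 0.991 (0.94 to 1.04). miR-152-3p, from COPZ2, had 119 and 110 reads, a ratio of 0.595 (0.455 to 0.778). A coding host gene thus went with ratios on both sides of 1.

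**Figure D5:**
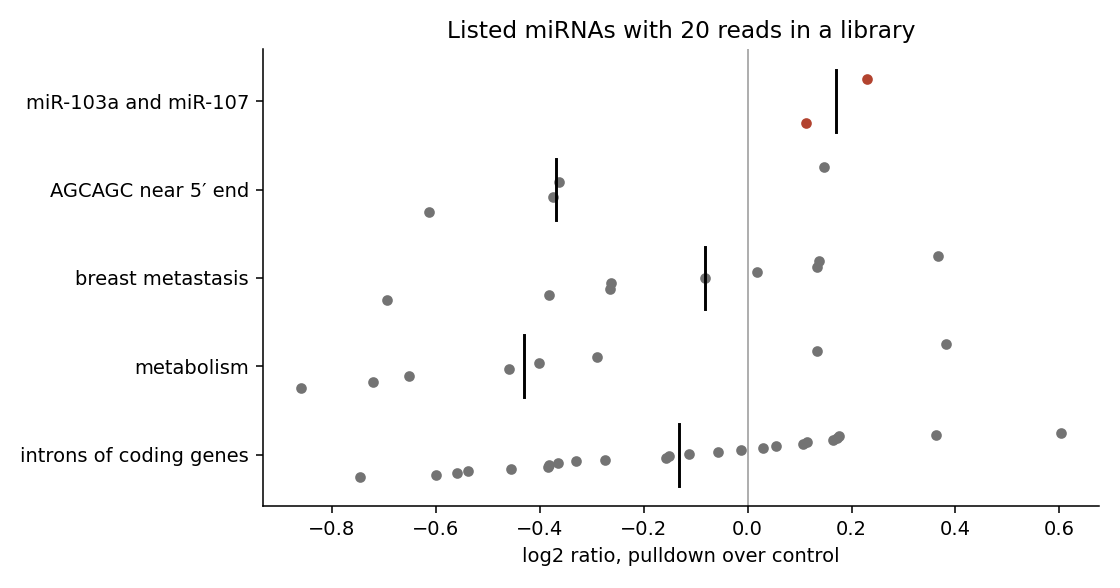
log2 ratio, pulldown over control, of each listed miRNA with at least 20 reads in a library, with the median as a vertical line; rows are the pair, its AGCAGC relatives, and miRNAs of breast metastasis, metabolism and introns of coding genes. The pair lies at 0.11 and 0.23, and the medians of the lists lie at -0.37, -0.08, -0.43 and -0.13.

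The members share length and base composition. Both members are 23 bases long with 47.8% G and C. The other 24 miRNAs of that length with 20 reads had a median log2 ratio of -0.22, 8 of them above 0, within -0.69 to 0.33. The 40 miRNAs within 5 percentage points of the same GC content had a median of -0.09, 15 of them above 0. All 117 other miRNAs with a sequence and 20 reads had a median of -0.06, 54 of them above 0. The 93 of other lengths had a median of -0.009, 46 of them above 0. Both members lay within the range of the group of their length and of the group of like GC content.

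The named miRNAs nearest to each member were taken by the distance between log2 RPM values over the 2 libraries. For miR-103a-3p they were miR-31-5p (distance 0.31), miR-125a-5p (0.34), miR-24-3p (0.35) and let-7e-5p (0.48). Of these, miR-125a-5p had a like ratio, 1.09 (1.02 to 1.17), and that of let-7e-5p was 1.04 (0.954 to 1.12). The ratios of miR-31-5p, 0.832 (0.776 to 0.892), and miR-24-3p, 0.863 (0.799 to 0.932), lay below 1. For miR-107 they were miR-1269a (0.14), miR-21-3p (0.24), miR-197-3p (0.37) and miR-423-3p (0.37). All 4 of these had ratios whose intervals included 1.

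The letters of SNHG15 were searched for matches to the shared seed. SNHG15 has 10 transcripts in GENCODE 29, and the sources used here do not name the one in the construct. The match to bases 2 to 8, ATGCTGC, was found in 0 of 10, and that to bases 2 to 7, TGCTGC, also in 0 of 10. Only the strand of the transcript was searched, and each ATGCTGC holds a TGCTGC. In the first 982 bases of 4209 lincRNA transcripts of at least that length, the length of transcript SNHG15-203, ATGCTGC occurred in 9.0% and TGCTGC in 37.3%. The 10 transcripts belong to the same gene, so they are not independent. Their lengths run from 505 to 3116 bases, and the windows match only SNHG15-203 in length. The longest run that pairs without a gap was 7 bases in SNHG15-203, and 61.3% of those windows held a run at least as long. Transcript SNHG15-202, 3116 bases long, held a run of 9 bases that pairs with bases 3 to 11 of both members. It is shown with the paired bases in capitals, from position 1469 to 1497 of the transcript.
SNHG15-202: gttgttttggACAATGCTGgtgtgaaagg
A run of at least 9 bases was found in 11.1% of 622 lincRNA windows of that length, SNHG15-202 itself among them. SNHG15-202 was picked because its run was the longest among the 10 transcripts. That share therefore does not measure how rare such a run is for SNHG15. The longest runs of SNHG15-201, SNHG15-207 and SNHG15-208, of 6, 7 and 6 bases, also began at base 3 of the miRNAs. These are matches of letters, and none was measured as a site.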

How the data were processed

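The deposited table gives raw read counts, whole numbers, for 407 miRNAs in the pulldown and control libraries; the lowest sum of a miRNA over the libraries was 2. Per the labels' protocols, mirVana was used for extraction and QIAseq for the libraries. Per the submitters' processing notes, the genome build was GRCh38. The sources used here give no aligner, miRNA annotation or use of molecular identifiers. The deposited values headed Tpm are reads per 1000000 (RPM), with no length term, of totals of 202630 and 111453 reads, 70 and 39 more than the table holds for the pulldown and the control. The deposited log2 fold changes and p-values are the authors'. Columns of other samples numbered 0.

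From the counts, RPM, ratios with exact conditional binomial 95% intervals and log2 ratios with a prior count of 0.5 were computed, scaled by the table's total reads, with 1 library in each group; nothing says whether they came from separate cultures. A ratio of ratios is a conditional odds ratio of reads. Tools were Python 3.11.15, scipy 1.17.1, R 4.3.3, edgeR 4.0.16 (TMM) and DESeq2 1.42.0 (size factors). Alternatives were other scalings, prior counts, read minimums and folds. Sequences are from RefSeq, which matched 321 of 357 named miRNAs. miRNAs were named from the lists if they had 20 reads in a library, up to 8 a list, with the 4 nearest to each member and the neighbours in rank; any other was named once its value was known. The members and lists were chosen with earlier results of these data known. The ratio intervals and the 2-fold rule were tested on simulated Poisson counts, which hold no spread between libraries. The other steps were not tested in this way.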

Additional observations from a re-analysis of the deposited data

How the results depend on the processing

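With 1 library for each resin, leaving out a replicate was not possible. No paired analysis was possible because each group held 1 library. Both members kept a log2 ratio above 0 under each scaling and prior count tried, but their size depends on the scaling. miR-103a-3p stood at 0.31 with TMM factors, 0.39 with DESeq2 size factors and 0.24 with totals without the 5 most abundant miRNAs, against 0.11 with total reads. The summed pair stood at 0.31, 0.39 and 0.24 under the same settings. With totals of named miRNAs only, the interval of miR-103a-3p began at 0.0012 on the log2 scale, so its place clear of 0 is narrow. Under TMM, DESeq2 and totals without the 5 most abundant miRNAs, the list medians over all measured members were 0.16, 0.24 and 0.091 for breast metastasis (-0.03 with total reads), 0.081, 0.16 and 0.010 for introns of coding genes (-0.11) and 0.11, 0.19 and 0.042 for mesenchymal or basal markers (-0.08). The erythroid median was -1.25, or 0.24 with miRNAs of 20 reads alone, which leaves miR-486-5p. The number of miRNAs at least 2-fold apart was 9 with 20 reads, 39 with at least 10 reads, 0 with at least 50 reads and 159 with no read minimum, and 34 were at least 1.5-fold apart. Intervals excluding 1 were 18 higher and 38 lower with total reads, 36 and 15 under TMM, 44 and 12 under DESeq2 and 28 and 21 without the 5 most abundant miRNAs. The library totals behind the authors' RPM values, an alternative chosen after seeing the data, moved no log2 ratio of the pair by as much as its counting error. At 47 and 22 reads, the interval of miR-107 spans 0.694 to 2.05, so a smaller difference was not detectable.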
